A study of Mus musculus with 24 samples.

Results

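The effect of losing NPC1 was compared between the hippocampus and the cerebellum of the same mice. The comparison used 16 of the 24 libraries of the study, from 8 of its 12 mice, and took each mouse's 2 tissues as a pair. For each gene it asked whether the change from Npc1+/+ to Npc1-/- was the same in the 2 regions. The mice belonged to the strain BALB/cNctr-Npc1m1N/J, in which the Npc1-/- genotype is a model of Niemann-Pick disease type C1. There were 4 Npc1+/+ mice, all female and 65 days old, and 4 Npc1-/- mice, 3 male and 1 female (replicate 3), 63 days old. All 8 received only the vehicle, PBS with PEG400, injected into the abdomen 5 days a week, beginning at day 28. The loss of Npc1 is constitutive, so every cell type of both regions carried it. The other 4 mice of the study were Npc1-/- mice given dipyridamole at 30 mg/kg, and their values are set beside the comparison at the end without entering it.

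NPC1 is a membrane protein of the late endosome and lysosome that passes cholesterol from the lysosome to the rest of the cell. Without it cholesterol and sphingolipids pile up in lysosomes, microglia and astrocytes become reactive, and neurons are lost region by region. Purkinje cells, whose axons carry the output of the cerebellar cortex, are known as the most vulnerable, and the making of myelin by oligodendrocytes is known to be impaired in this model.

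The 4 promoters printed here belong to genes that carry the main patterns described below. Among the named genes that reached 5 CPM (counts scaled to the size of the library) in each region, Itpka had the largest difference towards a higher response in hippocampus and Gpnmb the largest towards a lower one. Itgax was among the genes with the highest rise in both regions, and Cldn11 stands for the myelin genes. The sequences are from RefSeq (GRCm38.p6), run from 250 bases before the gene's start to 50 after it, and are written 5′ to 3′ on the gene's strand. Capitals mark matches to ACAAAG, the core bound by SOX factors, or to CACGTG, the E-box core of the element found in lysosomal genes, on either strand.
Itpka (chr2:119742087-119742386, plus strand): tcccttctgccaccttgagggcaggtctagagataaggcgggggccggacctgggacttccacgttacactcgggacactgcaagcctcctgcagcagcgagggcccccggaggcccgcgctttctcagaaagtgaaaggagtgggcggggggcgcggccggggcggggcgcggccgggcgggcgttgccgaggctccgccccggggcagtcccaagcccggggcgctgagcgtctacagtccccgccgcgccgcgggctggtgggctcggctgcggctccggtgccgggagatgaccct
Gpnmb (chr6:49036268-49036567, plus strand): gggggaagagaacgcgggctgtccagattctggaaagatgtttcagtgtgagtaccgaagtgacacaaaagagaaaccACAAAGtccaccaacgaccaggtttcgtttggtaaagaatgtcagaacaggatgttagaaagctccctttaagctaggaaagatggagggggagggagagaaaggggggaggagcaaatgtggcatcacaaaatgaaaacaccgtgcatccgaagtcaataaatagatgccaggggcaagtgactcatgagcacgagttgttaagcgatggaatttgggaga
Itgax (chr7:128129300-128129599, plus strand): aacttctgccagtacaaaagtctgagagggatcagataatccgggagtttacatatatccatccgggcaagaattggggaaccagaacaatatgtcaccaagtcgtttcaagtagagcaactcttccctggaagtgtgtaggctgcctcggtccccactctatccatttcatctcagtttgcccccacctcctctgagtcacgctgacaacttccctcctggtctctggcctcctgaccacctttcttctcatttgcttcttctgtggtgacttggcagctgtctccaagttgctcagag
Cldn11 (chr3:31149670-31149969, plus strand): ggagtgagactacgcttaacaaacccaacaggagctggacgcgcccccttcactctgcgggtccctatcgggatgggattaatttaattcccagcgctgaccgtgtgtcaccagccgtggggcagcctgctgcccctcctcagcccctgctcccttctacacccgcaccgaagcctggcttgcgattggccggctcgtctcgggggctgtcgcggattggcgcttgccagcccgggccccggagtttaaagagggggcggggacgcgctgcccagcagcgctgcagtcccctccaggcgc
Of these 4 windows, the Gpnmb promoter alone held a match, to ACAAAG. Promoters were matched by symbol for 10225 of the 13152 genes tested, taking the first entry listed for each gene. ACAAAG was found in 13.4% of all these promoters, in 12.8% of the 109 from genes whose response was higher in hippocampus and in 21.7% of the 129 from genes whose response was lower there. It was also found in 21.2% of the 33 from genes that fell in both regions and in 15.7% of the 127 from genes that rose in both. CACGTG was found in 9.76% of all promoters, in 11.9% and 6.2% of those from genes with a higher and a lower response in hippocampus, in 6.3% of those from genes that rose in both regions and in 0 of the 33 from genes that fell in both. These shares describe letters in a window and were not tested.

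Each library held between 1833609 and 11590081 counts, the lowest being the cerebellum of Npc1-/- replicate 2. Levels are CPM, scaled between libraries by TMM (trimmed mean of M values), and since the assay reads a short amplicon of each gene, levels are compared between samples and not between genes. The region labels held: the 8 cerebellar markers summed to 3650 CPM or more in every cerebellar library and to 93.6 CPM or less in every hippocampal one, and the 8 hippocampal markers to at least 866 CPM in hippocampus and at most 111 CPM in cerebellum. Sex-linked transcripts fitted the sex on the label in 16 of 16 libraries. Choroid plexus markers varied widely within each group (88.8 to 3880 CPM in Npc1+/+ hippocampus, 179 to 8310 CPM in Npc1-/- hippocampus). Age and the range of the ion codes, which the labels give as the batch, go wholly with genotype, so neither can be told apart from it. In Npc1-/- mice the codes also went with tissue, 117 to 123 in cerebellum and 125 to 131 in hippocampus. In Npc1+/+ mice they ran from 101 to 112 and alternated between the tissues. The difference between the regions cannot be told apart from this layout.

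Npc1 itself (ENSMUSG00000024413.15, GRCm39 chromosome 18, 12322749 to 12369457, minus strand) was checked before any other gene. In cerebellum it stood at 107, 106, 99.1 and 97.8 CPM in the Npc1+/+ mice and at 37.6, 24.2, 32.2 and 21.8 CPM in the Npc1-/- mice. In hippocampus the values were 63.6, 70.5, 79.6 and 98.3 CPM against 23, 18.2, 17.8 and 20.6 CPM. The genotypes did not overlap in either region, as held for 20.3% of all genes in cerebellum and 11.6% in hippocampus. The log2 change was -1.80 ± 0.18 (SE) in cerebellum and -1.97 ± 0.17 in hippocampus, and the difference between them, hippocampus minus cerebellum, was -0.12 with a 95% interval of -0.61 to 0.38. Where the amplicon lies relative to the mutation was not examined.

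The genotype effect differed between the regions for 329 of 13152 genes, 2.50% of those tested (edgeR quasi-likelihood test, adjusted p under 0.05). In 151 of them (1.15%) the response was higher in hippocampus and in 178 (1.35%) it was lower. Of the 151, 138 fell in cerebellum and did not pass the test in hippocampus. The 178 were of 2 main kinds: 79 rose in cerebellum without passing in hippocampus and 24 rose in both regions, while 54 fell in hippocampus without passing in cerebellum. Taken alone, the cerebellum gave 1939 calls (14.7%, with 8.13% higher and 6.61% lower in Npc1-/-) and the hippocampus 356 (2.71%, with 1.58% higher and 1.13% lower).

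**Figure D1:**
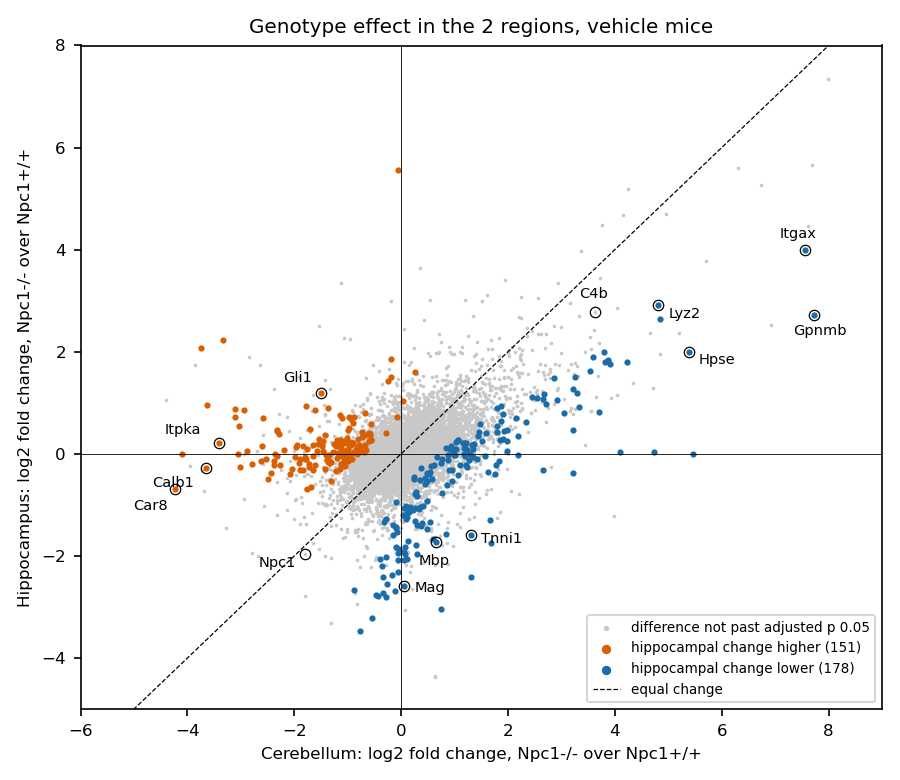
Log2 fold change of each tested gene between Npc1-/- and Npc1+/+ vehicle mice in cerebellum (x axis) and in hippocampus (y axis), n = 4 mice per genotype, with sex-linked genes left out. Orange marks the 151 genes with a higher and blue the 178 with a lower response in hippocampus, the dashed line is an equal response, and rings mark named genes: Itpka, Calb1 and Car8 lie far to the left near the horizontal axis, and Mag lies below the origin near the vertical axis.

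These counts rest on few mice: without Npc1-/- replicate 4, Npc1+/+ replicate 3, Npc1-/- replicate 1 or Npc1-/- replicate 2 the difference passed for 147, 170, 190 and 216 genes, and without Npc1+/+ replicate 4 for 558. The cerebellum gave 1204 calls without Npc1-/- replicate 4, and the hippocampus 134 to 190 without Npc1+/+ replicate 2 or 3 or Npc1-/- replicate 3 or 4. With a tissue by sex term the difference rests on the single female Npc1-/- mouse set against the female Npc1+/+ mice, and 22 genes passed, all of them among the 329. All 329 kept their sign in that fit. In bulk tissue fewer cells of a type and less RNA per cell cannot be told apart.

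Purkinje cell genes fell in cerebellum and, as a list, not in hippocampus. Of 33 listed genes 32 were measured: in 23 the response was higher in hippocampus than in cerebellum, in none was it lower, and 9 did not pass. In cerebellum 28 fell and none rose, with a median log2 change of -2.07 against 0.003 over all genes tested. The hippocampal median was 0.001 against -0.001, and Aldoc was the only member that passed there. The summed level of the list was 12900 to 14300 CPM in Npc1+/+ cerebellum and 4550 to 5940 CPM in Npc1-/- cerebellum, against 4030 to 4400 and 4520 to 5310 CPM in hippocampus. The hippocampal ranges, which include Aldoc, were also apart, with the Npc1-/- mice higher. Several members, such as Car8 and Skor2, were measured mainly through their level in cerebellum and have little or no signal in hippocampus from which to read a change.

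Calb1 encodes calbindin, a calcium buffer of Purkinje cells that is also made by granule cells of the dentate gyrus and by CA1 neurons. Calb1 (ENSMUSG00000028222.3, GRCm39 chromosome 4, 15881264 to 15908064, plus strand) read 679, 709, 639 and 640 CPM in Npc1+/+ cerebellum and 41.4, 39.7, 79.9 and 48.7 CPM in Npc1-/- cerebellum. In hippocampus it read 104, 116, 130 and 118 CPM against 102, 102, 88.1 and 93.5 CPM. The genotypes were far apart in cerebellum and did not quite overlap in hippocampus. The log2 change was -3.65 ± 0.21 in cerebellum and -0.28 ± 0.13 in hippocampus, a difference of 3.43 ± 0.24 (SE; 95% interval 2.91 to 3.95, edgeR adjusted p = 3.27e-06).

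Itpka, whose promoter is printed above, encodes a kinase that turns inositol trisphosphate into its tetrakisphosphate and binds actin in dendritic spines. It read 143, 104, 138 and 111 CPM in Npc1+/+ cerebellum and 11.5, 15, 11.9 and 9.66 CPM in Npc1-/- cerebellum. In hippocampus, where pyramidal neurons make it, the values were 312, 373, 393 and 537 CPM against 668, 311, 437 and 466 CPM. The genotypes did not overlap in cerebellum and overlapped in hippocampus. The difference between the log2 changes was 3.64 ± 0.30 (95% interval 3.01 to 4.28).

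Itpr1, the inositol trisphosphate receptor of the endoplasmic reticulum, stood at 1600 to 2660 CPM in Npc1+/+ cerebellum and 217 to 411 CPM in Npc1-/- cerebellum, with a difference between regions of 2.93 ± 0.30. Atp2a3, a calcium pump of that compartment, had a difference of 2.84 ± 0.38, and Homer3, a scaffold that ties glutamate receptors to Itpr1, of 2.82 ± 0.19. Homer3 read 56.5 to 73.9 CPM in Npc1+/+ hippocampus and 90.5 to 99.9 CPM in Npc1-/- hippocampus, ranges that did not overlap, yet its hippocampal change of 0.47 ± 0.13 did not pass the test (edgeR adjusted p = 0.079). Car8, which binds Itpr1, read 666 to 866 CPM against 23.7 to 57.6 CPM in cerebellum and under 7 CPM in all hippocampal libraries. Not all Purkinje genes fell in cerebellum: the changes there of Aldoc, found in a subset of these cells and in astrocytes, Gad1, Foxp2 and Cacna1a were -0.08, -0.37, -0.59 and -0.42 and did not pass. Aldoc rose in hippocampus, from 1013 ± 184 to 1682 ± 163 CPM (SD, n = 4). It counts among the 23 list members with a higher response in hippocampus. That call was lost without Npc1+/+ replicate 3 or Npc1-/- replicate 1, 2 or 3 (0.77 to 0.86).

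In Calb1, Itpr1, Atp2a3, Homer3 and Car8 the female mouse, replicate 3, had the highest of the Npc1-/- cerebellar values, and the part of sex was not tested beyond the fits with a sex term. Calb1, Itpka and Car8 stayed past the threshold in each of the 20 alternative analyses of their difference. Itpr1 and Atp2a3 missed it only with the tissue by sex term in the comparison's own libraries (edgeR adjusted p = 0.061 and 0.29). Homer3 missed it only when the dipyridamole mice were added with that term (edgeR adjusted p = 0.21).

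The 10 largest positive differences were taken among genes with at least 5 CPM in a group mean of each tissue and no overlap per mouse. Of these 10 genes, 4 were not on the Purkinje list. Hk2, hexokinase 2 of glycolysis, stood at 26.1 to 30.3 CPM in Npc1+/+ cerebellum and 6.92 to 9.80 CPM in Npc1-/- cerebellum, while in hippocampus it stood at 3.77 to 5.91 and 7.85 to 11.6 CPM. Both pairs of ranges were apart, in opposite directions, though the hippocampal change of 0.94 ± 0.24 did not pass (edgeR adjusted p = 0.061), and the difference between regions was 2.7 ± 0.28. Gcnt1, a glycosyltransferase, had a difference of 2.50 ± 0.29 and the same layout, with its hippocampal change of 0.87 not past the threshold. Cep76, a centriolar protein, fell from 107 to 142 CPM to 15.7 to 31.5 CPM in cerebellum and overlapped in hippocampus (difference 2.45 ± 0.27). The fourth gene, Gli1, passed in both regions with opposite signs and is described with the other such genes. Genes with a higher response in hippocampus were often cerebellar genes to begin with: 30.5% of the 151 were at least 4-fold higher in Npc1+/+ cerebellum than in Npc1+/+ hippocampus, against 2.84% of all genes tested. That share uses the same Npc1+/+ libraries as the comparison, so it is a description.

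Some markers of Bergmann glia, the astrocytes that surround Purkinje dendrites, also fell in cerebellum. The sums of this list overlapped there, at 2360 to 2940 CPM in Npc1+/+ and 2110 to 2620 CPM in Npc1-/- mice. Of 10 measured markers 5 fell in cerebellum and 2 in hippocampus, and the difference was higher in hippocampus for 3 and lower for none. Slc1a3, the glutamate transporter GLAST, read 479, 499, 564 and 468 CPM in Npc1+/+ cerebellum and 213, 164, 273 and 216 CPM in Npc1-/- cerebellum, with overlapping hippocampal ranges of 245 to 347 and 278 to 401 CPM. Its difference was 1.38 ± 0.18. Gdf10, a growth factor of these cells, differed by 1.12 ± 0.23. Etv5, a transcription factor, fell in both regions, by 1.32 on the log2 scale in cerebellum and by 0.52 in hippocampus (difference 0.79 ± 0.17). The call of Gdf10 was lost without Npc1-/- replicate 1, 2 or 4 (1.05 to 1.15), and that of Etv5 without Npc1+/+ replicate 2 or 3 or Npc1-/- replicate 1, 3 or 4 (0.70 to 0.83).

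Synaptic and activity genes passed in small numbers. Of 30 synaptic proteins 4 had a higher response in hippocampus and none a lower one: Homer3 and the scaffolds and receptor subunit Shank2 (1.79 ± 0.23), Shank1 (1.34 ± 0.23) and Gria1 (1.40 ± 0.26). The call of Gria1 was lost when the dipyridamole mice were added (1.40, edgeR adjusted p = 0.15). In cerebellum 11 of the 30 fell and in hippocampus 1 did. Of 23 immediate early genes 7 fell and 1 rose in cerebellum, and 3 fell in hippocampus. The median change was -0.41 in cerebellum and -0.335 in hippocampus, and the median difference was -0.013. The difference passed for Egr4 (1.56 ± 0.31), Nr4a3 (1.38 ± 0.30) and Nr4a1 (1.09 ± 0.24). All 3 are transcription factors induced by neuronal activity, and they fell in cerebellum. These 3 calls were each lost when Npc1+/+ replicate 3, Npc1-/- replicate 3 or Npc1-/- replicate 4 was left out, with differences of 0.94 to 1.54. Those of Nr4a3 and Nr4a1 were also lost without Npc1+/+ replicate 2 (1.39 and 1.09) or Npc1-/- replicate 1 (1.46 and 1.06). Markers of cerebellar granule cells had no member past the difference in edgeR or limma-voom and 1 in DESeq2. Of the 15, 3 reached an unadjusted edgeR p under 0.05, as did 13% of all genes tested. The granule cell list summed to 6330 to 8080 CPM in Npc1+/+ cerebellum and 5940 to 7180 CPM in Npc1-/- cerebellum, beside the much larger fall of the Purkinje list.

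**Figure D2:**
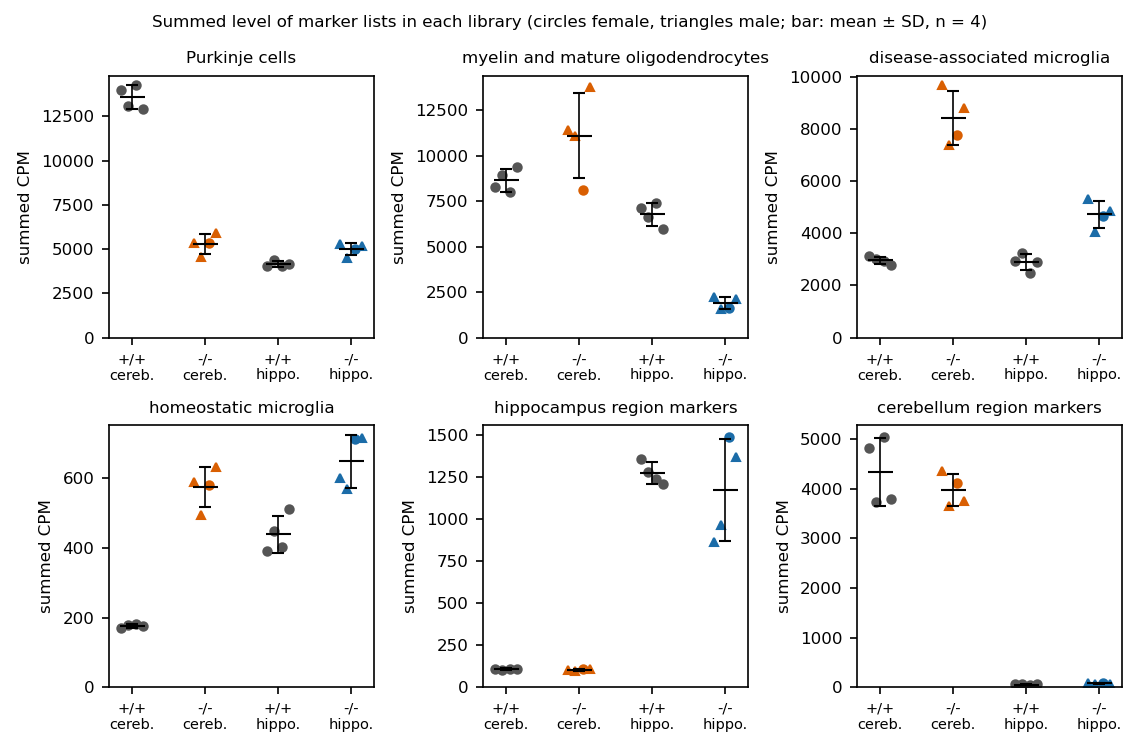
Summed CPM of 6 marker lists in each library (y axis) for the 4 groups of vehicle mice (x axis); circles are female and triangles male mice, and bars give the mean ± SD, n = 4. Purkinje genes fell in cerebellum from 12900 to 14300 CPM to 4550 to 5940 CPM, myelin genes in hippocampus from 5950 to 7400 CPM to 1560 to 2220 CPM, and the region markers separate the tissues in all libraries.

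Microglial genes rose in both regions and more in cerebellum. Of 22 measured genes of disease-associated microglia, the state that microglia take up around damaged or lipid-laden tissue, 21 rose in cerebellum and 14 in hippocampus, and none fell. The median log2 change was 2.71 in cerebellum and 1.44 in hippocampus. The difference was lower in hippocampus for 9 and higher for none. The summed level of the list was 2780 to 3110 CPM in Npc1+/+ cerebellum and 7380 to 9680 CPM in Npc1-/- cerebellum, against 2490 to 3240 and 4030 to 5310 CPM in hippocampus.

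Gpnmb, a transmembrane glycoprotein of lipid-laden phagocytes, had the largest difference in size of all genes named here for which both regions reached 5 CPM. Gpnmb (ENSMUSG00000029816.11, GRCm39 chromosome 6, 49013480 to 49047863, plus strand) read 0.347, 0.400, 0.513 and 0.121 CPM in Npc1+/+ cerebellum and 73.6, 127, 57.7 and 54.1 CPM in Npc1-/- cerebellum. In hippocampus it read 0.452, 1.52, 2.01 and 0.755 CPM against 6.52, 7.15, 11.8 and 5.57 CPM. Both regions separated the genotypes, and the Npc1-/- level was several times higher in cerebellum than in hippocampus. The log2 change was 7.72 ± 0.38 in cerebellum and 2.73 ± 0.43 in hippocampus, a difference of -4.88 ± 0.56 (95% interval -6.09 to -3.68, edgeR adjusted p = 0.000156). The Npc1+/+ cerebellar libraries held 13 Gpnmb counts in all, so the size of its rise there is imprecise.

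Itgax, which encodes the integrin CD11c, rose from 0.174, 0.200, 0 and 0 CPM to 26.2, 10.3, 28.4 and 22.9 CPM in cerebellum and from 1.08, 0.352, 0.537 and 0.755 CPM to 12.4, 10.5, 10.7 and 12.0 CPM in hippocampus. Its difference was -3.48 ± 0.72, resting on 4 counts over the Npc1+/+ cerebellar libraries, and its call was lost without Npc1+/+ replicate 3 (-3.25) or Npc1-/- replicate 4 (-3.47). Lyz2, lysozyme of myeloid cells, is better measured: 14.4 to 19.7 CPM in Npc1+/+ and 385 to 572 CPM in Npc1-/- cerebellum, against 9.36 to 13.3 and 47.6 to 118 CPM in hippocampus, a difference of -1.95 ± 0.22. The signalling adaptor Tyrobp (-1.67 ± 0.22), the lysosomal membrane protein Cd68 (-1.85 ± 0.27) and the lipid receptor Trem2 (-2.09) differed likewise. Apoe, the lipoprotein that carries cholesterol between brain cells, rose by 1.79 ± 0.14 in cerebellum and 0.89 ± 0.12 in hippocampus. Ctsl had nearly equal changes of 0.30 in each region, neither past the threshold.

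Of 13 homeostatic markers, genes of resting microglia, 9 rose in cerebellum and 1, P2ry12, in hippocampus. The difference was lower in hippocampus for 5. Cx3cr1, the fractalkine receptor, read 9.20 to 13.2 CPM in Npc1+/+ cerebellum, 33.2 to 50.0 CPM in Npc1-/- cerebellum, 36.4 to 42.6 CPM in Npc1+/+ hippocampus and 44.0 to 63.0 CPM in Npc1-/- hippocampus. The list as a whole summed to 170 to 181, 496 to 634, 392 to 511 and 569 to 717 CPM in the same order, so the cerebellum started below the hippocampus and the ranges of the Npc1-/- mice overlapped between the regions. Aif1, an actin-binding protein of microglia, gave 2.42 to 5.40, 13.4 to 19.7, 14.5 to 19.1 and 20.1 to 27.0 CPM. P2ry12, a purine receptor, rose by 2.01 and 1.91 on the log2 scale, a difference of -0.04.

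Receptors and regulators of myeloid cells rose in cerebellum in 20 of 20 and in hippocampus in 11, and 7 had a lower response in hippocampus. Among them were the Fc receptor chains Fcer1g (-2.16 ± 0.31) and Fcgr3 (-1.34 ± 0.21), the lysosomal protein Laptm5 (-1.46 ± 0.18) and the complement receptor C3ar1 (-2.21 ± 0.36). The list summed to 72.2 to 81.8 CPM in Npc1+/+ and 439 to 509 CPM in Npc1-/- cerebellum. In hippocampus it summed to 192 to 220 and 401 to 513 CPM. Here too the cerebellum started lower, and the ranges of the Npc1-/- mice overlapped between the regions. Mpeg1, a pore-forming protein of macrophages, had a difference of the other sign, 1.41, which did not pass. Of 8 measured complement genes 8 rose in cerebellum and 5 in hippocampus, with a lower response in hippocampus for C3ar1, C1qc (-1.99 ± 0.35) and C1qb (-1.66 ± 0.40). The call of C1qb was lost without any of 6 of the 8 mice in turn, all but Npc1+/+ replicate 4 and Npc1-/- replicate 1 (-1.67 to -1.41). In the fit with the tissue by sex term 1 of the 22 disease-associated genes still passed, Gpnmb, and no member of the homeostatic or myeloid lists did.

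Reactive astrocytes gave the same order of the regions in part of their genes. Of 17 measured genes 12 rose in cerebellum and 8 in hippocampus, with 4 lower in hippocampus. Gfap, the filament protein of astrocytes, read 9.12, 9.10, 8.34 and 9.33 CPM in Npc1+/+ and 136, 152, 118 and 137 CPM in Npc1-/- cerebellum. In hippocampus it read 19.9, 13.2, 17.3 and 13.9 CPM against 54.7, 46.2, 59.4 and 58.5 CPM. The genotypes were apart in both regions, and the change was 3.91 ± 0.15 in cerebellum and 1.76 ± 0.17 in hippocampus (difference -2.13 ± 0.23). Serpina3n, a secreted protease inhibitor, started at 4.49 to 13.7 CPM in Npc1+/+ cerebellum and at 67.8 to 88.4 CPM in Npc1+/+ hippocampus, and reached 71.7 to 91.8 and 103 to 162 CPM in Npc1-/- mice. Its difference was -2.32 ± 0.31. Cd44, a hyaluronan receptor, and Cd109 passed the rise in cerebellum alone. Aqp4, the water channel of astrocyte endfeet, rose by 1.23 ± 0.24 in cerebellum and had a change of -0.26 ± 0.25 in hippocampus, a difference that was lost without the pairing of tissues by mouse.

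Of 42 measured hydrolases and membrane proteins 22 rose in cerebellum and 9 in hippocampus, none fell, and 7 had a lower response in hippocampus. The median change was 0.56 in cerebellum and 0.31 in hippocampus. Hpse, heparanase, rose from 0.385 to 0.608 CPM to 16.5 to 27.7 CPM in cerebellum and from 1.41 to 3.09 CPM to 6.33 to 10.6 CPM in hippocampus (difference -3.32 ± 0.42). Among the others were Cd68, the cathepsins Ctss (-1.46 ± 0.29) and Ctsd (-0.92), the hexosaminidase subunit Hexa (-1.01), and Galns (-1.58), a sulfatase. The call of Ctss was lost without Npc1+/+ replicate 3 or Npc1-/- replicate 2 or 4 (-1.45 to -1.30). Npc2, the soluble partner of NPC1, rose by 1.09 in cerebellum and 1.00 in hippocampus, a difference of -0.04. The proton pump of the lysosome had no member past the difference in edgeR, DESeq2 or limma-voom among 17. Of the 17, 2 reached an unadjusted edgeR p under 0.05, as did 13% of all genes tested.

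Cholesterol synthesis genes leaned apart between the regions. Of 22 measured genes 7 rose in cerebellum and none in hippocampus, where 1 fell (Msmo1, a sterol oxidase), and the medians were 0.33 and -0.18. The difference was lower in hippocampus for Fdft1, squalene synthase (-0.93 ± 0.23), and Sqle, squalene epoxidase (-0.84 ± 0.18). Sqle read 94.5 to 104 CPM in Npc1+/+ and 118 to 160 CPM in Npc1-/- cerebellum, and 127 to 191 and 107 to 127 CPM in hippocampus. A further 10 members reached an unadjusted p under 0.05 without passing the adjusted threshold. Over all genes tested 13% had such a p, passing genes included, and 6 members of the list passed in DESeq2. Both calls were lost without Npc1+/+ replicate 3 or Npc1-/- replicate 2 or 4, with differences of -0.99 to -0.74, and that of Fdft1 also without Npc1-/- replicate 1 or 3. Myelin genes, described next, moved the same way between the regions, and their part in these values was not tested.

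Myelin genes fell in hippocampus and, as a list, not in cerebellum. Of 27 listed genes 25 were measured: 22 fell in hippocampus and none rose, while in cerebellum 2 rose and 2 fell. The median log2 change was -2.07 in hippocampus and -0.11 in cerebellum. In 22 members the response was lower in hippocampus and in none was it higher. The summed level was 5950 to 7400 CPM in Npc1+/+ hippocampus and 1560 to 2220 CPM in Npc1-/- hippocampus, against 8010 to 9380 and 8100 to 13800 CPM in cerebellum. The lowest Npc1-/- cerebellar sum was that of the female mouse, inside the range of the Npc1+/+ mice, and the 3 males lay at 11100 to 13800 CPM.

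Mag encodes an adhesion protein of the innermost myelin layer. Mag (ENSMUSG00000036634.16, GRCm39 chromosome 7, 30598601 to 30614298, minus strand) read 195, 146, 183 and 106 CPM in Npc1+/+ hippocampus and 25.8, 31.1, 22.7 and 26.3 CPM in Npc1-/- hippocampus. In cerebellum it read 182, 233, 182 and 235 CPM against 180, 326, 171 and 197 CPM. The genotypes were apart in hippocampus and overlapped in cerebellum. Its log2 change was -2.58 ± 0.20 in hippocampus and 0.05 ± 0.19 in cerebellum, a difference of -2.57 ± 0.26 (95% interval -3.13 to -2.01, edgeR adjusted p = 7.65e-05).

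Cldn11, the claudin that seals the layers of myelin and whose promoter is printed above, read 82.6, 78.4, 76.4 and 72.0 CPM in Npc1+/+ hippocampus and 22.9, 14.3, 9.63 and 15.7 CPM in Npc1-/- hippocampus. Its cerebellar values were 89.9, 75.3, 75.4 and 76.4 CPM against 79.8, 73.2, 59.2 and 91.7 CPM. The genotypes again separated in hippocampus only, with a difference of -2.29 ± 0.21. Opalin, a membrane protein of mature oligodendrocytes, differed by -2.60 ± 0.25, Mal, a raft proteolipid, by -2.38 ± 0.24, and Ermn, a cytoskeletal protein of myelin, by -2.64 ± 0.45. Nipal4, which was not on the list, fell from 8.91 to 14.5 CPM to 0.825 to 3.28 CPM in hippocampus and overlapped in cerebellum (difference -2.56 ± 0.34).

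Ugt8a, which makes the galactolipids of myelin, fell in both regions and more in hippocampus. It read 69.4, 67.7, 67.1 and 53.9 CPM against 9.54, 9.63, 8.89 and 12.4 CPM in hippocampus. In cerebellum it read 82.8, 106, 74.7 and 89.7 CPM against 37.9, 61.9, 28.3 and 66.6 CPM. The genotypes were apart in both regions, and the changes were -2.67 ± 0.17 and -0.89 ± 0.23 (difference -1.73 ± 0.24). The cerebellar fall missed the threshold without Npc1+/+ replicate 2 (-0.78).

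Of 18 measured genes of precursors and new oligodendrocytes 4 fell in hippocampus, 2 rose and 2 fell in cerebellum, and 3 had a lower response in hippocampus. Those were Enpp6 (-1.84 ± 0.28) and Bcas1 (-2.15 ± 0.44), markers of newly formed oligodendrocytes, and Sox10 (-1.23 ± 0.20), a transcription factor of the whole lineage. The call of Bcas1 was lost without Npc1+/+ replicate 1 or 3 or Npc1-/- replicate 1, 2 or 4 (-2.07 to -1.85). Pdgfra, the growth factor receptor of precursors, changed by -0.07 in hippocampus and 0.20 in cerebellum, and neither passed. The list summed to 614 to 725 CPM in Npc1+/+ and 475 to 543 CPM in Npc1-/- hippocampus, ranges that did not overlap, and to 727 to 768 and 758 to 904 CPM in cerebellum, where they did. The hippocampal markers ranged from 866 to 1490 CPM in Npc1-/- and from 1210 to 1360 CPM in Npc1+/+ hippocampus beside these falls, and their part was not tested. Mag, Cldn11, Opalin and Mbp stayed past the threshold in each of 20 alternatives, and 5 of the 25 myelin genes did so with the tissue by sex term.

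The genotype moved 6 genes in opposite directions in the 2 regions, 0.0456% of those tested, and 5 of these rose in cerebellum and fell in hippocampus. Mbp, myelin basic protein, read 4850, 5010, 4670 and 5360 CPM in Npc1+/+ and 8320, 7450, 5440 and 10000 CPM in Npc1-/- cerebellum. In hippocampus it read 4060, 3720, 3980 and 3400 CPM against 1420, 914, 956 and 1330 CPM. The genotypes did not overlap in either region, but the female Npc1-/- mouse at 5440 CPM lay just above the highest Npc1+/+ value in cerebellum. The cerebellar change was 0.65 ± 0.17 and the hippocampal one -1.72 ± 0.16. The cerebellar rise of Mbp was lost without Npc1+/+ replicate 1, 2 or 3 or Npc1-/- replicate 4 (0.51 to 0.66). Myrf, the transcription factor that switches on myelin genes, had cerebellar values of 37.4, 41.1, 38.9 and 40.5 CPM against 52.1, 73.8, 41.9 and 72.8 CPM, again with the female lowest, and hippocampal ranges of 30.2 to 52.4 and 10.7 to 16.5 CPM. Its cerebellar rise was lost without Npc1+/+ replicate 1, 2, 3 or 4 or Npc1-/- replicate 4 (0.475 to 0.616).

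Tnni1, Tnfaip6 and Plekhg3 shared this direction. Tnni1, a troponin subunit, read 9.49 to 11.1 CPM against 18.6 to 36.3 CPM in cerebellum and 7.12 to 9.06 against 1.10 to 5.00 CPM in hippocampus (difference -2.96 ± 0.31). Tnfaip6, a hyaluronan-binding protein, rose by 0.83 ± 0.18 and fell by 1.57 on the log2 scale. The hippocampal fall of Tnni1 was lost without any mouse but Npc1-/- replicate 4 (-1.64 to -1.40). That of Tnfaip6 was lost without Npc1+/+ replicate 2 or 3 or Npc1-/- replicate 3 (-1.53 to -1.48). For Plekhg3 it was lost without Npc1+/+ replicate 2 or 3 or Npc1-/- replicate 3 or 4 (-0.94 to -0.89). Its cerebellar rise was lost without any mouse but Npc1-/- replicate 2 or 3 (0.46 to 0.54). Gli1, a transcription factor of the hedgehog pathway found in Bergmann glia and other astrocytes, went the other way: 32.5, 32.0, 25.1 and 28.3 CPM against 10.0, 9.28, 11.6 and 10.1 CPM in cerebellum, and 4.25, 6.56, 4.43 and 4.68 CPM against 11.3, 14.0, 8.39 and 12.6 CPM in hippocampus. Its changes were -1.51 ± 0.17 and 1.20 ± 0.24, and both pairs of groups were apart. The hippocampal rise of Gli1 was lost without Npc1+/+ replicate 1, 3 or 4 or Npc1-/- replicate 4 (1.12 to 1.17). With sex as a covariate over the 12 libraries of each tissue none of the 6 passed in both regions, and leaving out Npc1+/+ replicate 3 also left none. Leaving out any other mouse gave 1 to 7 such genes, with 1 to 3 without Npc1+/+ replicate 1, 2 or 4 or Npc1-/- replicate 3 or 4. In the fit with sex the cerebellar change of Mbp was 0.37 (edgeR adjusted p = 0.22) and the hippocampal change of Gli1 was 1.18 (edgeR adjusted p = 0.18).

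**Figure D3:**
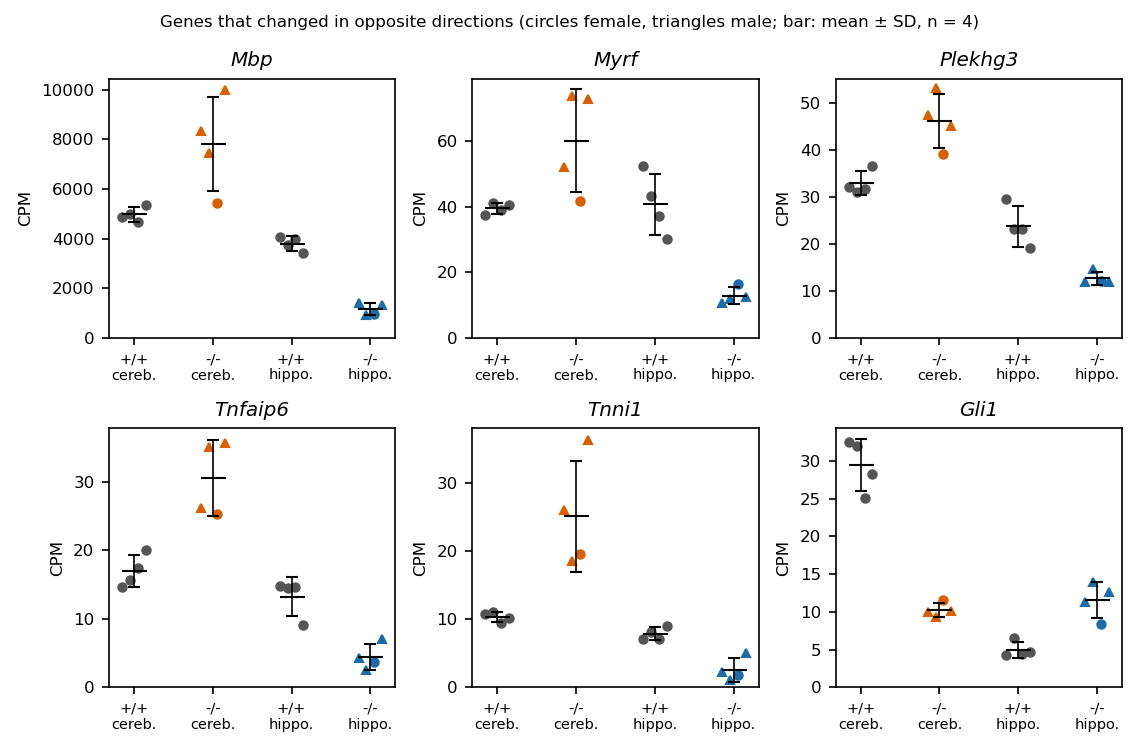
CPM of the 6 genes whose genotype effect passed in both regions with opposite signs (y axis) in the 4 groups of vehicle mice (x axis); circles are female and triangles male, bars are the mean ± SD, n = 4. In Npc1-/- cerebellum the female mouse is lowest for Mbp, Myrf, Plekhg3 and Tnfaip6, and for Gli1 the 2 regions converge from 25.1 to 32.5 and 4.25 to 6.56 CPM to 9.28 to 11.6 and 8.39 to 14.0 CPM.

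A shared response, past the threshold in both regions with the same sign, was found for 199 genes (1.51%), 157 higher (1.19%) and 42 lower (0.319%). They were 55.9% of the hippocampal and 10.3% of the cerebellar calls. The difference itself passed in 27 of the 199, and in 84 its 95% interval lay within a log2 difference of 1 on either side. The change was larger in cerebellum for 122, which were 110 of the 157 rises and 12 of the 42 falls. Without Npc1+/+ replicate 3, Npc1-/- replicate 3, Npc1+/+ replicate 2 or Npc1-/- replicate 4 the shared genes numbered 70, 89, 98 and 98. The comparisons of the 2 tissues use different libraries of the same mice, and both use the same genotype, age and sex contrast.

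Among the largest shared rises, Arl11 and Aspg had close estimates in the 2 regions, with wide intervals of the difference. C4b, Clec7a and C3 had larger estimates in cerebellum. Arl11, a small GTPase of macrophages, read 0.868, 0.600, 1.15 and 1.33 CPM against 15.8, 9.28, 12.6 and 13.1 CPM in cerebellum. In hippocampus it read 0.271, 1.41, 0.403 and 1.21 CPM against 7.63, 9.35, 9.13 and 9.42 CPM. Its changes of 3.73 ± 0.29 and 3.45 ± 0.42 gave a difference of -0.19 with an interval of -1.41 to 1.03. Aspg, an asparaginase, rose by 3.17 ± 0.45 and 2.95 ± 0.34 (difference -0.03, interval -1.26 to 1.20). C4b, a complement component, rose from 5.10 to 6.06 CPM to 44.4 to 101 CPM in cerebellum and from 6.5 to 7.70 CPM to 40.4 to 59.9 CPM in hippocampus, and its difference of -0.83 ± 0.31 did not pass (edgeR adjusted p = 0.24). Clec7a, a pattern receptor of microglia, rose by 5.71 ± 0.24 and 3.78 ± 0.43, a difference of -1.89 that missed the threshold (edgeR adjusted p = 0.12). C3, the central complement protein, rose by 4.04 and 2.85, the latter not past the threshold without Npc1+/+ replicate 3 (2.64).

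Of 17 interferon response genes 11 rose in cerebellum and 8 in hippocampus, those 8 in both, with medians of 1.68 and 1.49. None passed the difference in edgeR or limma-voom and 1 passed in DESeq2. An unadjusted edgeR p under 0.05 was reached by 2 of the 17, as by 13% of all genes tested. Irf7, a regulator of the response, rose by 2.27 and 2.02, Oasl2 by 2.21 and 2.07, and the chemokine Cxcl10 by 4.25 and 5.2. Of 9 antigen presentation genes 5 rose in cerebellum and 4 in hippocampus, 3 of them in both. H2-D1, a class I heavy chain whose reads can be shared with its close relatives, was the only member past the difference: 170 to 235 and 188 to 290 CPM in cerebellum, which overlapped, and 30.9 to 41.4 against 82.3 to 131 CPM in hippocampus (difference 1.33 ± 0.23). H2-K1, its relative, rose by 1.35 and 1.22.

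Besides Npc1 and the myelin gene Ugt8a, the named shared falls included genes of the endoplasmic reticulum. Sdf2l1, a cofactor of the chaperone BiP, read 56.1, 82.1, 68.6 and 89.8 CPM against 22.2, 39.2, 28.0 and 33.7 CPM in cerebellum and 52.4, 54.7, 45.5 and 53.1 CPM against 21.6, 22.0, 23.5 and 25.0 CPM in hippocampus. The genotypes were apart in both, and the changes of -1.30 ± 0.19 and -1.16 ± 0.14 differed by 0.13 (interval -0.35 to 0.62). Manf, a secreted stress factor, fell by 1.32 and 0.81 on the log2 scale and Hspa5, which encodes BiP, by 1.14 and 0.74. Of 23 chaperones and stress factors 11 fell in cerebellum and 5 in hippocampus, those 5 in both. None passed the difference in edgeR or limma-voom and 1 passed in DESeq2. An unadjusted edgeR p under 0.05 was reached by 7 of the 23, against 13% of all genes tested. Lman2l, a cargo receptor, Josd2, a deubiquitinase, Mkks, Prr14l and Dok3 also fell in both regions, by 1.00 to 1.49 in hippocampus and 0.87 to 1.31 in cerebellum on the log2 scale. The falls of Mkks and Dok3 in hippocampus were close to the threshold (edgeR adjusted p = 0.040 and 0.044) and were lost with sex as a covariate, as was that of Manf (-0.75, edgeR adjusted p = 0.069). The hippocampal fall of Dok3 was also lost without Npc1+/+ replicate 2, 3 or 4 or Npc1-/- replicate 2, 3 or 4 (-1.32 to -1.07) and its cerebellar fall without Npc1+/+ replicate 4 or Npc1-/- replicate 3 or 4 (-0.83 to -0.73). In hippocampus that of Mkks was lost without Npc1+/+ replicate 2 or 4 or Npc1-/- replicate 3 or 4 (-1.32 to -1.21) and in limma-voom (-1.34), and that of Manf without Npc1+/+ replicate 2 or 3 (-0.77 and -0.81).

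**Figure D4:**
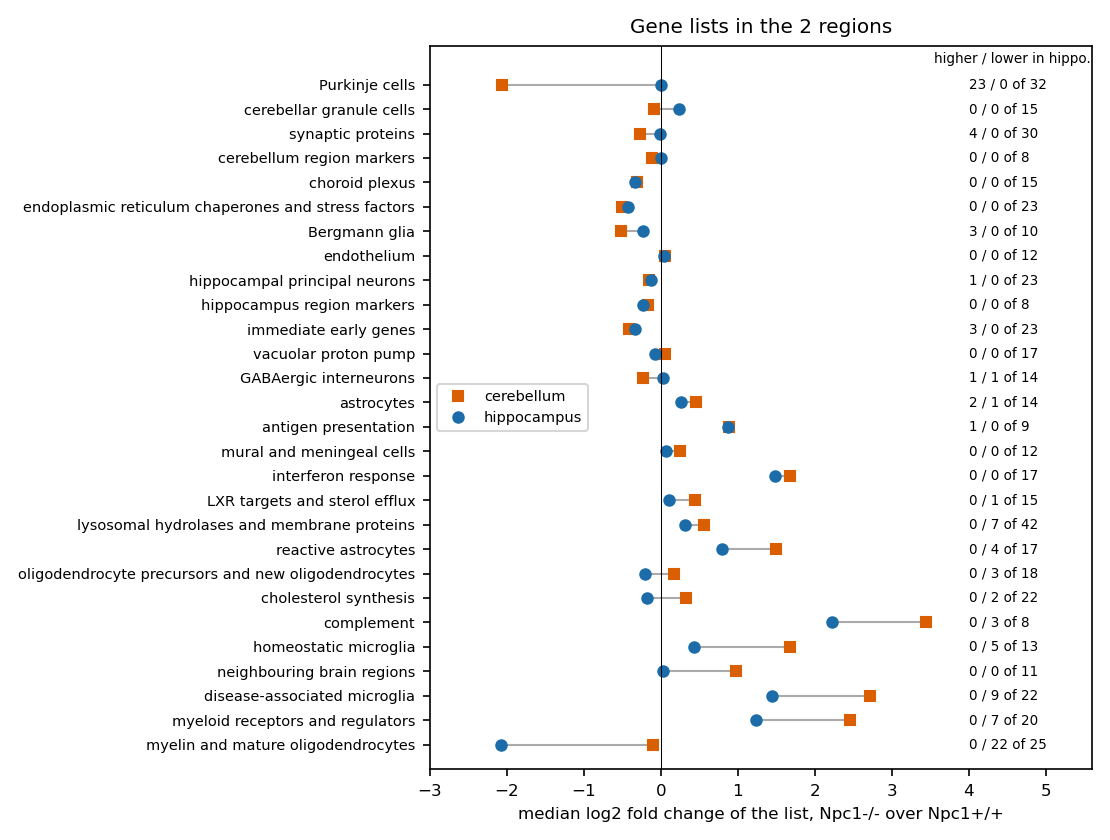
Median log2 fold change of each gene list (x axis) in cerebellum (squares) and hippocampus (circles), vehicle mice, with lists on the y axis ordered by the median difference. The numbers on the right give how many measured members had a higher or a lower response in hippocampus: 23 and 0 of 32 for Purkinje cells, 0 and 22 of 25 for myelin, and 0 and 0 of 17 for the interferon response.

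Some genes passed the difference although 1 region held them below 1 CPM in all groups, so that their change there is hardly measured. Arhgef33, an exchange factor of Purkinje cells, fell from 45.7 to 68.1 CPM to 2.58 to 11.1 CPM in cerebellum, while hippocampal means were 0.339 and 0.553 CPM. Nlrp10 and Slc5a1 fell in cerebellum from means of 4.95 and 8.72 CPM to 0.281 and 1.57 CPM. Milr1 rose from 2 counts over the Npc1+/+ cerebellar libraries to 2.09 ± 1.03 CPM (SD, n = 4), and Defb42 from 4.24 ± 1.36 to 13.2 ± 2.40 CPM. All 5 differences depended on single mice. That of Arhgef33 (3.94) missed the threshold without Npc1-/- replicate 1 (3.15), and that of Nlrp10 (5.90) without Npc1-/- replicate 3 (5.08). That of Slc5a1 was lost without Npc1-/- replicate 1, 3 or 4 (3.24 to 3.41), that of Milr1 without any mouse but Npc1+/+ replicate 1 or 4 (-5.25 to -4.05), and that of Defb42 without Npc1+/+ replicate 2 or 3 or Npc1-/- replicate 3 or 4 (-3.19 to -2.54). Igfbpl1, which reached 5 CPM in both regions, rose in cerebellum from 0.608 to 1.15 CPM to 5.76 to 13.9 CPM and overlapped in hippocampus at 3.09 to 4.69 and 3.58 to 8.76 CPM (difference -2.75 ± 0.55). The call of Igfbpl1 was lost without Npc1-/- replicate 4, in the fit of 24 libraries and with the tissue by sex term.

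Neurons of the hippocampus and vessels gave few differences between regions. Of 23 markers of hippocampal principal neurons Calb1 alone passed, through its fall in cerebellum described above, and none of the 23 fell or rose in hippocampus. Of 14 interneuron genes Nos1, neuronal nitric oxide synthase, had a lower response in hippocampus (-0.86 ± 0.19) and Cck, a neuropeptide, a higher one (0.92 ± 0.21). Both calls were lost without Npc1+/+ replicate 2 or 3 or Npc1-/- replicate 1, 3 or 4 (-0.93 to -0.80 for Nos1, 0.79 to 0.96 for Cck). Endothelial and choroid plexus genes had no member past the difference in edgeR, DESeq2 or limma-voom. None reached an unadjusted edgeR p under 0.05, against 13% of all genes tested. Choroid plexus genes varied too widely between mice for this to say much. The log2 CPM of Kl in hippocampus minus that in cerebellum had an SD of 1.89 in Npc1+/+ and 2.88 in Npc1-/- vehicle mice. Mural and meningeal genes summed to 1630 to 2130 CPM in Npc1+/+ and 2340 to 3480 CPM in Npc1-/- cerebellum, ranges that did not overlap, chiefly through Ptgds, which rose by 0.68 ± 0.15. Markers of neighbouring brain regions summed to 264 to 333 CPM in Npc1-/- and 217 to 273 CPM in Npc1+/+ cerebellum, ranges that overlapped, and there Th, Chat and Trh, of catecholamine, cholinergic and thyrotropin-releasing hormone neurons, rose. With a choroid plexus score as covariate 293 genes passed the difference, 278 of them among the 329, and the calls of Cck and Fdft1 were lost (0.89 and -0.94). The part of the mural, meningeal and neighbouring tissues in the differences described above was not tested.

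The dipyridamole mice, which did not enter the comparison, gave a further reading of the difference between regions within a mouse. The log2 CPM of Calb1 in hippocampus minus that in cerebellum was -2.51 ± 0.18 in Npc1+/+ mice, 0.93 ± 0.56 in Npc1-/- vehicle mice and 0.74 ± 0.06 in Npc1-/- dipyridamole mice (SD, n = 4 each). For Gpnmb the values were 0.92 ± 0.51, -3.22 ± 0.76 and -2.96 ± 0.55, and for Mag -0.43 ± 0.59, -2.98 ± 0.26 and -3.33 ± 0.47. In these 3 genes no Npc1-/- mouse of either treatment reached the range of the Npc1+/+ mice. Not every named gene kept this separation. Homer3 stood at 0.61 ± 0.20 in Npc1-/- vehicle mice. A single dipyridamole mouse lay at -2.48 beside its Npc1+/+ range of -2.47 to -1.93, while the highest reached 1.02. For Gria1 Npc1-/- vehicle mice stood at 2.44 to 3.09. Its lowest dipyridamole value, 0.72, lay inside the Npc1+/+ range of 0.71 to 2.03. The labels give both libraries of dipyridamole replicate 4 the same ion code. In vehicle mice the genotypes did not overlap in this within-mouse difference for 9.00% of all genes tested.

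**Figure D5:**
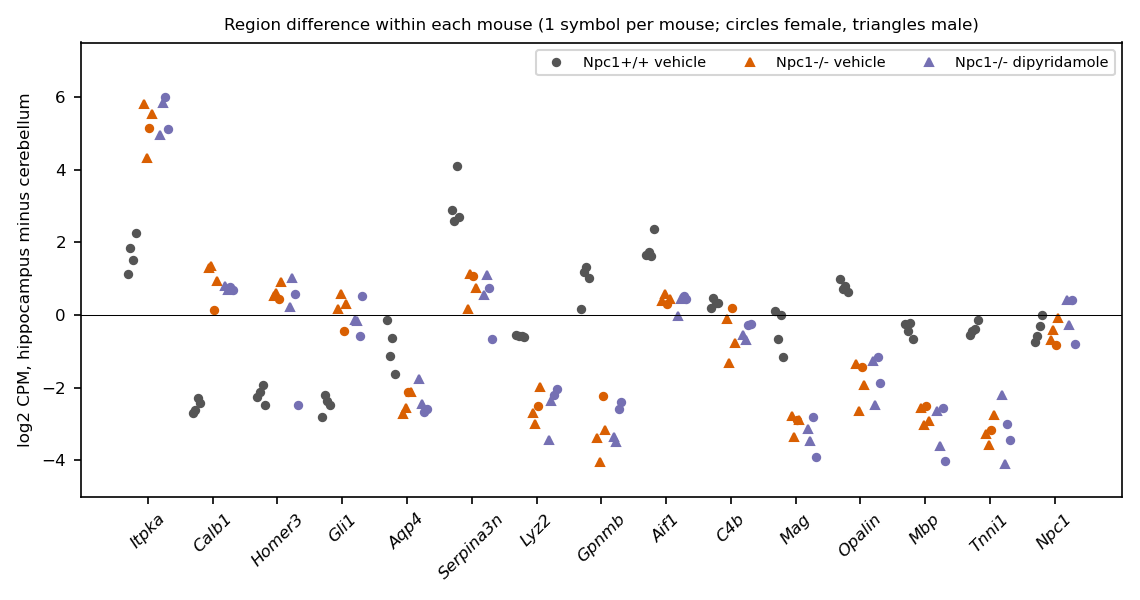
Log2 CPM in hippocampus minus log2 CPM in cerebellum of the same mouse (y axis) for named genes (x axis), 1 symbol per mouse, in Npc1+/+ vehicle, Npc1-/- vehicle and Npc1-/- dipyridamole mice, scaled over all 24 libraries. Npc1-/- mice lie above Npc1+/+ mice for Itpka and Calb1 and below them for Gpnmb, Mag, Opalin and Mbp, while for Npc1 the groups overlap.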

How the data were processed

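RNA from hippocampus and cerebellum was measured with the Ion AmpliSeq Transcriptome Mouse panel on an Ion S5 sequencer, per the labels' protocols. The deposited values are read counts per gene, made by the authors with featureCounts 2.0.3, unstranded, on GRCm39 with the GENCODE annotation, per the file headers. FastQC 0.11.9, Trimmomatic 0.39 and STAR 2.7.9a are named in the submitters' processing notes. Without strand, reads of overlapping antisense genes cannot be told apart. Of 57126 genes in the files, 51884 identifiers were matched to a symbol, and the rest held 0.21% of the counts.

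Counts of the 16 libraries were tested with edgeR 4.0.16 (quasi-likelihood F test, TMM factors, the filterByExpr filter, R 4.3.3) on 13152 genes. The design had a term for each mouse, for tissue and for tissue by genotype, with 6 residual degrees of freedom and no sex term, since sex is nearly confounded with genotype. Each tissue was also fitted alone (8 libraries). The p-values were adjusted over all genes (Benjamini-Hochberg, threshold 0.05), standard errors come from the F statistic, and intervals are 95% intervals. The labels give 4 separate mice per group, which were littermates. Per-mouse differences use log2(CPM + 0.5). Npc1-/- cerebellum of replicate 2, the shallowest library, has the least precise low values. The fits were tested on simulated counts that held no effect of the mouse. Of genes given a 4-fold, 2-fold or 1.5-fold difference between the tissues' genotype effects, 81.8%, 41.8% and 2.99% were recovered. Among unchanged genes 6 were called. Small differences were mostly missed there, and the shares need not hold for the paired data.

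Tissues were paired by mouse, per the labels. The deviations of a mouse's 2 libraries from their group means had correlations from -0.395 to 0.446 over genes, above 0.1 in 3 of 8 mice.

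Genes were named by rule. For the difference they were the 10 largest of each sign with at least 5 CPM in a group mean of each tissue and no overlap per mouse. For the shared response they were the 10 highest and 10 lowest mean changes. To these came the genes with opposite signs, 5 genes under 1 CPM in a tissue, and up to 4 members of each list. Other members named for contrast, such as Aldoc, Ctsl, Mpeg1, Npc2, Pdgfra, Hspa5, Trem2 and H2-K1, were chosen after their values were seen. The members and lists were chosen with earlier results of these data known. Alternatives were no pairing, sex terms, 24 libraries, DESeq2 1.42.0, limma-voom (limma 3.58.1), RLE factors, library totals, looser and stricter filters (5 CPM in 4 libraries), a choroid plexus covariate, a GC covariate chosen after seeing the data, and each mouse left out in turn. Some genes that the rule would name are not reported here.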

Additional observations from a re-analysis of the deposited data

Results flagged for a closer look

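A test of the difference itself found unequal genotype effects in hippocampus and cerebellum for 329 genes (edgeR, 16 libraries). The named genes with a higher response in hippocampus were Itpka (3.64), Calb1 (3.43), Itpr1 (2.93), Atp2a3 (2.84), Homer3 (2.82), Hk2 (2.7), Gli1 (2.69), Gcnt1 (2.5) and Cep76 (2.45), each value being the difference of log2 fold changes. Those with a lower response were Gpnmb (-4.88), Itgax (-3.48), Hpse (-3.32), Tnni1 (-2.96), Igfbpl1 (-2.75), Ermn (-2.64), Opalin (-2.6), Mag (-2.57) and Nipal4 (-2.56).

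For Atp2a3, the Npc1-/- mouse of replicate 3, the only female of its group, stood apart with a hippocampus minus cerebellum log2 CPM of -2.59, while the other 3 lay between -1.25 and -1.1. The gap was 0.904 of the group's range, above the 95% critical share of Dixon's test for 4 values. It was the only such value among 64 groups of 4 examined, and chance alone flags about 1 in 20.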

How the results depend on the processing

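All 329 genes with a difference between the regions kept their sign under every alternative that tested them, and no called result reversed. Among the differences printed without a call, those of Npc1 (-0.443 to 0.023), Arl11 (-0.538 to 0.424) and Aspg (-0.291 to 0.334) lay on either side of 0 across the alternatives. Without the replicate block 317 genes passed (270 of the 329 among them), and with limma-voom 320. Scaling by library totals gave 354, split into 133 higher and 221 lower in hippocampus against 151 and 178. Adding the dipyridamole mice gave 389, and a GC covariate chosen after seeing the data gave 410. The fits with a sex term called fewer: 22 (9 higher, 13 lower) in 16 libraries with a tissue by sex term, and 154 (81 higher, 73 lower) in 24 libraries. With sex as covariate over the 12 libraries of a tissue 1260 genes passed in cerebellum, 207 in hippocampus and 0 with opposite signs, against 10 with opposite signs in the same libraries without it. DESeq2 called more: 503 differences, of which 278 were lower in hippocampus, 792 genes in hippocampus, 382 shared and 15 with opposite signs. The cause of these changes was not tested. Leaving out each mouse in turn gave 147 to 558 differences (75 to 269 higher, 72 to 289 lower in hippocampus). The same step gave 1204 to 2797 calls in cerebellum, 134 to 410 in hippocampus, 70 to 261 shared and 0 to 7 opposite. Of the tests of named differences under alternatives, 1857 kept their side of the threshold, 177 fell below it and 20 rose past it. Without the replicate block the named calls of Nos1 (-0.84), C1qb (-1.74), Aqp4 (-1.49), Aldoc (0.81), Fdft1 (-0.94), Nr4a3 (1.46) and Nr4a1 (1.05) were lost and that of Atf3 (-1.63) was gained; no other named difference changed its call. Depth limits the genes with few counts in a group, such as Gpnmb, Itgax and Milr1.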
